A study of Mus musculus with 6 samples.

Results

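The genes described here are the 10 members of the D-type cyclin module that the cell uses to leave G1: the D-type cyclins *Ccnd1*, *Ccnd2* and *Ccnd3*, the kinases *Cdk4* and *Cdk6*, the INK4 inhibitors *Cdkn2a*, *Cdkn2b* and *Cdkn2c*, and the CIP/KIP inhibitors *Cdkn1a* and *Cdkn1b*. They were matched by gene name in the tables, which together list 20788 genes. Of the 10 genes, 8 were listed in all 6 libraries and passed the filter for testing (a mean of at least 0.1 FPKM), and 2, *Cdkn2a* and *Cdkn2b*, were listed in none.

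Expression was measured by RNA sequencing of 3 libraries each from Tyr-H and Tyr-L cells, which are subclones of B16, a melanoma line of the C57BL/6 mouse strain, labelled as having high and low tyrosinase activity. The paper's methods derive them from colonies grown at low density, and the cells of both groups were kept in low-glucose DMEM with serum, with no treatment given in the labels. Whether a group's 3 libraries stand for separate cultures is not given in the sources used here, so the p-values measure the spread between these libraries, which may be technical. Nor can differences between bulk libraries tell fewer cells in a state of the cycle from less of an RNA per cell.

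D-type cyclins are made in response to growth signals and bind CDK4 or CDK6, and the active pairs phosphorylate the retinoblastoma protein, which then releases E2F factors to switch on the genes of DNA replication. INK4 proteins bind CDK4 and CDK6 and keep cyclin D away, whereas CIP/KIP proteins chiefly hold CDK2 complexes in check and also bind cyclin D complexes. *Cdkn2a* encodes both p16Ink4a and, from another reading frame, p19Arf, which restrains MDM2 and so spares p53, and it is a gene commonly lost in melanoma.

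Levels are in FPKM, fragments scaled to transcript length and to the mapped fragments of the library, so they can be set side by side between genes. Among the 60 other G1/S genes and the members alike, log2 fold changes compare Tyr-H with Tyr-L on the log2(FPKM + 0.1) scale and come from limma, with p-values adjusted by Benjamini-Hochberg across the 14336 genes tested. The tables hold no depth, and an estimate from the lowest values gave 18600000 to 22400000 fragments per library. *Tyr*, the gene for tyrosinase, ranged over 9.52 to 10.7 FPKM among Tyr-L libraries and 19.7 to 23.8 FPKM among Tyr-H libraries, in the order of the labels. All 6 melanocyte lineage markers checked were expressed, and all 6 were lower in Tyr-H cells by the adjusted p alone, as were 39.9% of all tested genes. *Mitf*, the master regulator of the lineage, had a log2 fold change of -1.85, while *Tyrp1* and *Mlana* lay only -0.08 and -0.09 from the median of all genes (-0.15). For protein, the paper reports more TYRP1 and TYRP2 (the product of *Dct*) in Tyr-H cells and MITF that did not differ. The RNA levels of these genes thus ran otherwise than the reported protein. Of 12 markers of blood, endothelial, epithelial and fibroblast cells, 4 (*Ptprc*, *Adgre1*, *Itgam* and *Cdh5*) were listed in no library, and the summed level of the 12 was 3.36 to 4.25 FPKM in Tyr-L and 4.33 to 4.8 FPKM in Tyr-H libraries, nearly all of it *Cd68*. The part of these markers in the results was not tested.

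No tested member reached a 2-fold difference. At an adjusted p up to 0.05 together with a 2-fold change, the threshold of the study, limma called 0 of the 8 tested members, where it called 8.75% of all tested genes (2.96% higher and 5.78% lower). At that adjusted p alone, 4 members (*Ccnd1*, *Ccnd2*, *Cdk6* and *Cdkn1a*) were higher and 2 (*Cdk4* and *Cdkn2c*) lower in Tyr-H cells, and *Ccnd3* and *Cdkn1b* did not pass. That is 6 of 8, as at an unadjusted p under 0.05, where 57.8% of all tested genes passed the adjusted threshold (17.9% higher and 39.9% lower) and 62.4% the unadjusted value. The median log2 fold change was 0.08 over the 8 members and -0.15 over all tested genes, so differences from the median of all tested genes are also given for the members. Over the 8 members it was -0.01 after rescaling to equal totals, 0.24 under median ratio scaling and 0.13 with quantile normalization. With 3 libraries against 3, an exact permutation test cannot go below p = 0.1, two-sided, and it gave 0.1 for the 6 members whose groups did not overlap, as the groups of 64% of all tested genes did not (20.2% higher and 43.8% lower in Tyr-H). Of these 6, *Ccnd2*, *Ccnd3*, *Cdk6* and *Cdkn1a* were the 4 higher and *Cdk4* and *Cdkn2c* the 2 lower in Tyr-H.

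**Figure D1:**
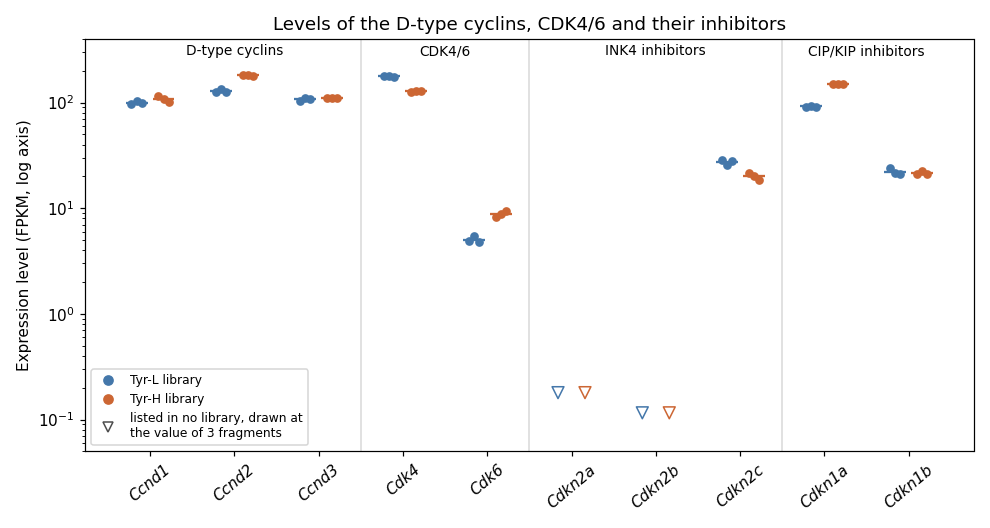
FPKM on a log axis of each member in each of the 3 Tyr-L and 3 Tyr-H libraries (points), with the group means as lines. *Cdk6* sits between 4.82 and 9.43 FPKM while its partner kinase *Cdk4* sits between 127 and 177 FPKM, and *Cdkn2a* and *Cdkn2b*, listed in no library, are drawn as open triangles at the highest value that 3 fragments would give them.

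Promoter sequence is shown for *Cdk4*, *Cdk6*, *Cdkn1a* and *Cdkn2c*, the members with a window whose levels differed most. Windows of 300 bases (250 before and 50 after a transcription start, RefSeq, GRCm38.p6) were at hand for 8 members, with none for *Ccnd1* and *Ccnd2*. Capitals mark matches to 7 short motifs that were searched on either strand. These were the GC box, which reads GGGCGG, the E-box, spelled CACGTG, the TATA box, for which the search took TATAAA, and the box named CCAAT. The search also took the cell cycle element TTTGAA along with the E2F-type elements spelled TTCCCGC or, in the other form, TTGGCGC. Matches may share bases, as the last pair of GC boxes in the *Cdk4* window do.
Cdk4 promoter (chr10:127063285-127063584, plus strand): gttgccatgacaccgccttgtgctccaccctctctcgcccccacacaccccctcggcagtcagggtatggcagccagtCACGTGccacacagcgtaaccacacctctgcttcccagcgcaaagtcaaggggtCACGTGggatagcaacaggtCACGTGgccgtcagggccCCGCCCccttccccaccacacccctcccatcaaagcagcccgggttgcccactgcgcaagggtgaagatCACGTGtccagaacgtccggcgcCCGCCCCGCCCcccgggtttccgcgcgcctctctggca
Cdk6 promoter (chr5:3343643-3343942, plus strand): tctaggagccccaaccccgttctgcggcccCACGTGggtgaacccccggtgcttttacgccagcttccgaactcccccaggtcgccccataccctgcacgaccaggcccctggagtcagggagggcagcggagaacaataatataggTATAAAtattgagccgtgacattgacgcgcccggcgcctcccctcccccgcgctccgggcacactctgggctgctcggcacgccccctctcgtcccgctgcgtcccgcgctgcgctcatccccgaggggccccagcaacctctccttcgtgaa
Cdkn1a promoter (chr17:29093519-29093818, plus strand): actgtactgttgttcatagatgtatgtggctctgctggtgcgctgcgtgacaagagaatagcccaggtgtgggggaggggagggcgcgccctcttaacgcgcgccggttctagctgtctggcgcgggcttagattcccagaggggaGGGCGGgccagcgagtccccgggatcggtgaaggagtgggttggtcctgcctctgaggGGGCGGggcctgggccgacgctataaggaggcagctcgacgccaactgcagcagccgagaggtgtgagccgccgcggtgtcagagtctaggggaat
Cdkn2c promoter (chr4:109666707-109667006, minus strand): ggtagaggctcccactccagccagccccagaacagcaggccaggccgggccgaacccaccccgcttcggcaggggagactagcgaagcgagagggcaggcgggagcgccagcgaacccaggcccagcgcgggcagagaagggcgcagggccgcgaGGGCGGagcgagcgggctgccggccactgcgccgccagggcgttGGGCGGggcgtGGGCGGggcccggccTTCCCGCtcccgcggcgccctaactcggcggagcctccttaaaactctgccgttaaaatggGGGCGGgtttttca

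The *Cdk4* window held 4 E-boxes, with first bases at -172, -118, -98 and -11 from the start, and 3 GC boxes. Of all 32851 windows of this length, 7.15% held CACGTG at all and 8 windows, or 0.0244%, held it at least 4 times. The cut at 4 was taken from the *Cdk4* window itself, and repeats of the other motifs were not counted over all windows. The *Cdk6* window held 1 E-box at -220 and TATAAA at -103, and no GC box. The *Cdkn1a* window shown, which begins downstream of another annotated start of the same gene, held GC boxes at -104 and -46, and its upstream window none of the motifs. The *Cdkn2c* window shown held 4 GC boxes and TTCCCGC at -25, and a downstream window of the same gene held no GC box, an E-box at 35 and CCAAT at 8. Among all windows 35.7% held GGGCGG, 13.6% TATAAA, 37.4% CCAAT, 17.9% TTTGAA, 4.6% TTCCCGC and 2.45% TTGGCGC. These matches describe the sequence, and binding was not measured.

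The D-type cyclins were among the most abundant mRNAs of both subclones, and *Ccnd2* was the cyclin that differed most. *Ccnd2* (ENSMUSG00000000184, chr6:127125162-127152193, minus strand) was at 127, 135 and 127 FPKM in Tyr-L libraries 1 to 3 and at 181, 183 and 180 FPKM in Tyr-H libraries 1 to 3. Every Tyr-H library lay above every Tyr-L library. Its mean rose from 130 ± 4.78 to 181 ± 1.67 FPKM (SD, n = 3, as for all means that follow), which was 1.4-fold, with a log2 fold change of 0.48 (SE 0.03, 95% interval 0.40 to 0.56, adjusted p = 4.5e-06) and a difference of 0.64 from the median of all genes.

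*Ccnd1* (ENSMUSG00000070348, chr7:144929931-144939925, minus strand), the D-type cyclin best known as an oncogene, was at 96.4, 103 and 99.0 FPKM in Tyr-L libraries 1 to 3 and 116, 108 and 102 FPKM in Tyr-H libraries 1 to 3. The groups overlapped, since the lowest Tyr-H library lay below the highest Tyr-L library. Its mean went from 99.4 ± 3.36 to 109 ± 6.77 FPKM, with a log2 fold change of 0.13 (SE 0.05, 95% interval 0.02 to 0.23) that passed at an adjusted p = 0.048, and of 0.28 from the median of all genes. It no longer passed in 9 of 15 alternatives, with an adjusted p of 0.15 and a log2 fold change of 0.08 without Tyr-H library 1 and an adjusted p of 0.15 and a log2 fold change of 0.10 without Tyr-L library 1. The exact permutation test gave p = 0.2.

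*Ccnd3* (ENSMUSG00000034165, chr17:47505051-47599691, plus strand) was the steadiest of the 3. It was at 104, 110 and 108 FPKM in Tyr-L libraries 1 to 3 and 111, 110 and 110 FPKM in Tyr-H libraries 1 to 3, and the means were 107 ± 2.90 and 111 ± 0.633 FPKM. The log2 fold change was 0.04 (SE 0.03, 95% interval -0.03 to 0.11, adjusted p = 0.31), or 0.19 from the median of all genes. At the scaling of the deposited values, the interval leaves room for a change of at most 0.11 on the log2 scale. It does not cover the choice of scaling. Its groups did not overlap, by a narrow gap, and its log2 fold change turned to -0.05 when each library was rescaled to the same total, while with median ratio scaling it passed at 0.19 (adjusted p = 0.0011).

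The 3 cyclins together reached 328 to 349 FPKM in Tyr-L and 392 to 408 FPKM in Tyr-H libraries, so that the sum of the means was 1.19-fold higher in Tyr-H. Within that sum the share of *Ccnd2* was 38.1% to 38.9% in Tyr-L and 44.3% to 45.9% in Tyr-H libraries. The share of *Ccnd1* went from between 29.4% and 29.6% to between 26% and 28.4%, and that of *Ccnd3* from between 31.6% and 32.3% to between 27.3% and 28.1%. The ratio of *Ccnd2* to *Ccnd1* was 1.29 to 1.32 in Tyr-L and 1.56 to 1.76 in Tyr-H libraries.

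The partner kinases moved in opposite directions. *Cdk4* (ENSMUSG00000006728, chr10:127063534-127067920, plus strand), whose promoter window carries the 4 E-boxes above, was at 177, 177 and 176 FPKM in Tyr-L libraries 1 to 3 and 127, 128 and 128 FPKM in Tyr-H libraries 1 to 3. The libraries of each group lay close together, with the groups far apart. The mean fell from 176 ± 0.592 to 128 ± 0.792 FPKM, by 27.6%, with a log2 fold change of -0.47 (SE 0.03, 95% interval -0.53 to -0.40, adjusted p = 1.7e-06) and of -0.31 from the median of all genes.

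*Cdk6* (ENSMUSG00000040274, chr5:3341485-3531008, plus strand) was the least abundant member that was detected. It was at 4.86, 5.44 and 4.82 FPKM in Tyr-L libraries 1 to 3 and 8.22, 8.78 and 9.43 FPKM in Tyr-H libraries 1 to 3, with no overlap. The mean rose from 5.04 ± 0.345 to 8.81 ± 0.604 FPKM, or 1.75-fold, the largest relative difference of the 8 tested members, with a log2 fold change of 0.79 (SE 0.08, 95% interval 0.62 to 0.97, adjusted p = 2.9e-05) and of 0.95 from the median of all genes. This interval, at the scaling of the deposited values, came near to, and stayed below, a 2-fold change. The log2 fold change of *Cdk6* lay nearer to 2-fold with median ratio scaling (0.94, SE 0.08) and with quantile normalization (0.96, SE 0.08). *Cdk4* exceeded *Cdk6* by a ratio of 32.5 to 36.4 in Tyr-L and of 13.6 to 15.4 in Tyr-H libraries, and the share of *Cdk6* in the sum of both kinases went from between 2.67% and 2.99% to between 6.09% and 6.85%. Since *Cdk4* made up most of that sum, the sum followed it, going from 181 ± 0.849 to 136 ± 1.36 FPKM, a ratio of 0.752.

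**Figure D2:**
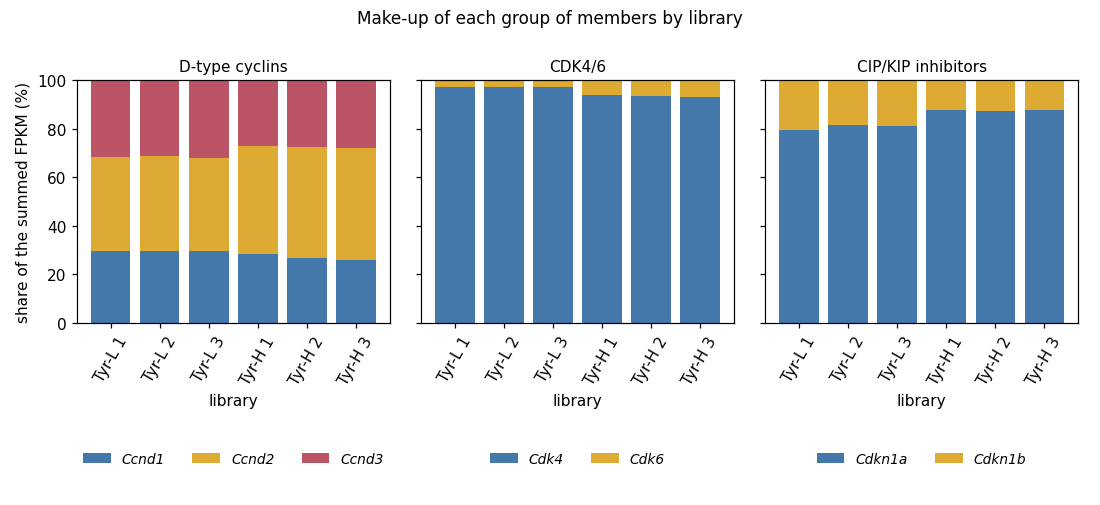
Stacked bars of the share (%) that each member has in the summed FPKM of its group, per library, for the D-type cyclins, CDK4/6 and the CIP/KIP inhibitors. The *Ccnd2* share is 38.1% to 38.9% in the Tyr-L bars and 44.3% to 45.9% in the Tyr-H bars, the *Cdk6* share 2.67% to 2.99% and 6.09% to 6.85%, and the *Cdkn1a* share 79.3% to 81.3% and 87.1% to 87.7%.

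*Cdkn2a* was not detected in either group. *Cdkn2a* (ENSMUSG00000044303, chr4:89274471-89294653, minus strand) had no entry in any of the 6 tables. With its longest annotated transcript of 895 nt and the estimated depths, 3 fragments would have given 0.15 to 0.18 FPKM, which is the level that a count of 0 still allows. The limit is approximate, covers counting error only, and takes it that the gene was in the annotation used for counting, which the sources used here do not give. *Cdkn2b* (ENSMUSG00000073802, chr4:89306299-89311039, minus strand), the gene for p15Ink4b that lies 11.6 kb from *Cdkn2a*, also had no entry in any table, with 3 fragments worth 0.0964 to 0.116 FPKM. No fold change can be given for either gene.

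The promoter windows of *Cdkn2a* are shown because the annotated starts of the gene, which serve its different reading frames, lie apart. The upstream window held 3 GC boxes, at -48, -14 and 32, and TTCCCGC at -98. The downstream window held 1 GC box at 24, which shares bases with a reverse CCAAT match at 21.
Cdkn2a promoter (chr4:89294570-89294869, minus strand): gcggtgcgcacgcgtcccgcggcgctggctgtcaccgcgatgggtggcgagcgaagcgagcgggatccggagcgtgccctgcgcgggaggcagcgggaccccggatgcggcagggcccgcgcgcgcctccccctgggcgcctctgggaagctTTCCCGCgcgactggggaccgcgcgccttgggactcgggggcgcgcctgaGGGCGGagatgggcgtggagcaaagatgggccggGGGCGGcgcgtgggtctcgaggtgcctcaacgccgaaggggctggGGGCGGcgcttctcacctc
Cdkn2a promoter (chr4:89282143-89282442, minus strand): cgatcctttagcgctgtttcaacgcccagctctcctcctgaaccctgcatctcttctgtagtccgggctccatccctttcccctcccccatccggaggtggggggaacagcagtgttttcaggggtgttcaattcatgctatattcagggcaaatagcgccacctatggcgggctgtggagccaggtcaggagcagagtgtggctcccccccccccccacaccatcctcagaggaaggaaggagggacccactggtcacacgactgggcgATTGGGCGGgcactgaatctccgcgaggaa

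Within 1 Mb, the 3 protein-coding genes on the *Cdkn2b* side of *Cdkn2a* were listed in no library, as were 23 of the 36 on the other side. The share of unlisted genes over the whole annotation was not counted. These counts and those below therefore describe the region only and do not set it apart from others. *Mtap*, which encodes an enzyme of the methionine salvage pathway and whose end lies 93.4 kb from *Cdkn2a*, was at 132, 141 and 140 FPKM in Tyr-L libraries 1 to 3 and 120, 120 and 112 FPKM in Tyr-H libraries 1 to 3. It fell in Tyr-H cells with a log2 fold change of -0.23 (SE 0.04, adjusted p = 0.00092), which is -0.08 from the median of all genes, and it did not pass under median ratio scaling (adjusted p = 0.15). Between the end of *Mtap* and the start of *Dmrta1*, a span of 498.4 kb, the annotation has 9 genes, *Cdkn2a* and *Cdkn2b* included, and 1 of them was listed, in a single library (*Gm12608*, at 0.0282 FPKM in Tyr-L library 2). *Dmrta1* and *Zfp352*, at 384.8 kb and 924.2 kb from *Cdkn2a*, were listed in no library.

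Within 1 Mb of *Cdkn2a* lie 39 other protein-coding genes, of which 13 were listed in at least 1 library and 6 had a mean of at least 0.1 FPKM. Of the 39, 17 have a symbol that begins with Ifn, the name of the interferon genes. *Klhl9*, which encodes an adaptor of a ubiquitin ligase, fell from a mean of 32.4 ± 2.19 to 24.9 ± 1.14 FPKM (log2 fold change -0.38, SE 0.06, adjusted p = 0.00039), which is -0.22 from the median of all genes and -0.22 under median ratio scaling (adjusted p = 0.0088). *Focad* rose from 10.7 ± 0.923 to 15.5 ± 0.318 FPKM (log2 fold change 0.53, SE 0.07, adjusted p = 0.00011). *Hacd4* had means of 3.76 and 3.42 FPKM and did not pass (adjusted p = 0.24), and the other 2 of the 6, *Gm26566* and *Gm13283*, were at 1.02 and 1.12 and at 0.187 and 0.17 FPKM in Tyr-L and Tyr-H cells.

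**Figure D3:**
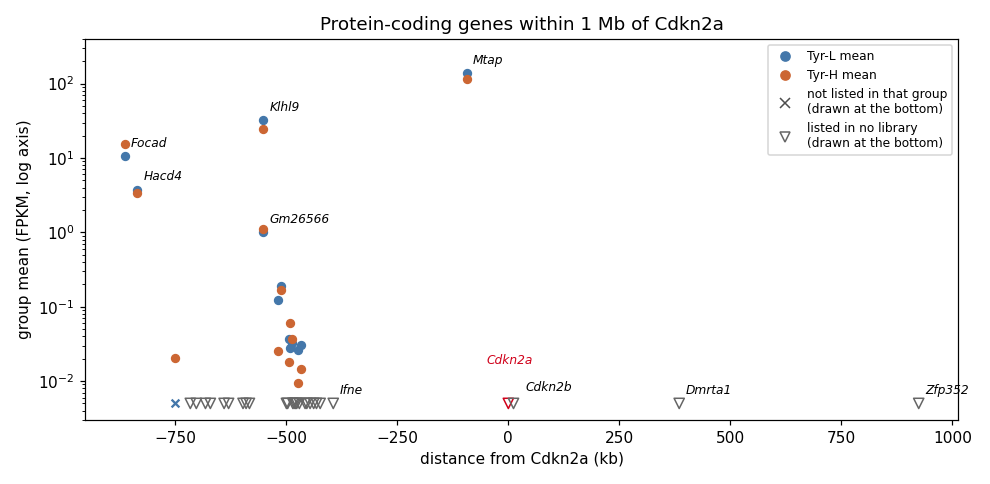
Group mean (FPKM, log axis) of each protein-coding gene within 1 Mb of *Cdkn2a* against its distance from *Cdkn2a* in kb, with open triangles for genes listed in no library and a cross where a group of a listed gene is at 0. *Mtap*, 93.4 kb away, has a Tyr-L mean of 138 and a Tyr-H mean of 117 FPKM, and no protein-coding gene from *Cdkn2a* to the right edge has a value.

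*Cdkn2c* (ENSMUSG00000028551, chr4:109660876-109667189, minus strand), the gene for p18Ink4c, lies on the same chromosome and was expressed. It was at 28.8, 25.9 and 28.1 FPKM in Tyr-L libraries 1 to 3 and 21.5, 20.3 and 18.4 FPKM in Tyr-H libraries 1 to 3. The groups did not overlap, although the replicates spread more than those of *Cdk4*. The mean fell from 27.6 ± 1.48 to 20 ± 1.56 FPKM, by 27.4%, with a log2 fold change of -0.46 (SE 0.06, 95% interval -0.61 to -0.32, adjusted p = 0.00023) and of -0.31 from the median of all genes. With *Cdkn2a* and *Cdkn2b* unlisted, *Cdkn2c* made up the whole sum of the 3 INK4 members. The remaining INK4 gene, *Cdkn2d* (p19Ink4d), from the list of other G1/S genes, had means of 35.4 ± 0.816 and 38.1 ± 0.952 FPKM and rose slightly (log2 fold change 0.11, SE 0.04, adjusted p = 0.036), but did not pass after rescaling to equal totals (0.01, adjusted p = 0.82). Median ratio scaling gave 0.26 (adjusted p = 0.00024) and quantile normalization 0.21 (adjusted p = 0.001). *Cdkn2d* also missed the threshold without Tyr-L library 2 or 3 (adjusted p = 0.1 and 0.097) and without Tyr-H library 2 or 3 (0.1 and 0.09). The ratio of *Cdkn2d* to *Cdkn2c* was 1.25 to 1.34 in Tyr-L and 1.72 to 2.1 in Tyr-H libraries.

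*Cdkn1a*, the gene for p21 and the classic target of p53, was the member with the smallest adjusted p. *Cdkn1a* (ENSMUSG00000023067, chr17:29090976-29100727, plus strand) was at 91.6, 93.4 and 91.2 FPKM in Tyr-L libraries 1 to 3 and 149, 151 and 151 FPKM in Tyr-H libraries 1 to 3. The libraries of a group lay close together and the groups were far apart. The mean rose from 92.1 ± 1.15 to 151 ± 1.01 FPKM, or 1.64-fold, with a log2 fold change of 0.71 (SE 0.03, 95% interval 0.64 to 0.77, adjusted p = 2.7e-07) and of 0.86 from the median of all genes.

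*Cdkn1b* (ENSMUSG00000003031, chr6:134920401-134925513, plus strand), the gene for p27, was at 23.9, 21.5 and 21.3 FPKM in Tyr-L libraries 1 to 3 and 21.2, 22.4 and 21.1 FPKM in Tyr-H libraries 1 to 3. The groups overlapped. The means were 22.2 ± 1.46 and 21.6 ± 0.726 FPKM, with a log2 fold change of -0.04 (SE 0.05, 95% interval -0.16 to 0.08, adjusted p = 0.54), whose sign changed with the scaling, and 0.11 from the median of all genes. The ratio of *Cdkn1a* to *Cdkn1b* was 3.84 to 4.35 in Tyr-L and 6.76 to 7.15 in Tyr-H libraries, and the sum of both went from 114 ± 1.61 to 172 ± 1.64 FPKM, 1.51-fold. *Cdkn1a* mRNA stood to *Cdk4* mRNA at 0.519 to 0.528 in Tyr-L and at 1.17 to 1.18 in Tyr-H libraries, so its level was below that of *Cdk4* in each Tyr-L library and above it in each Tyr-H library.

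**Figure D4:**
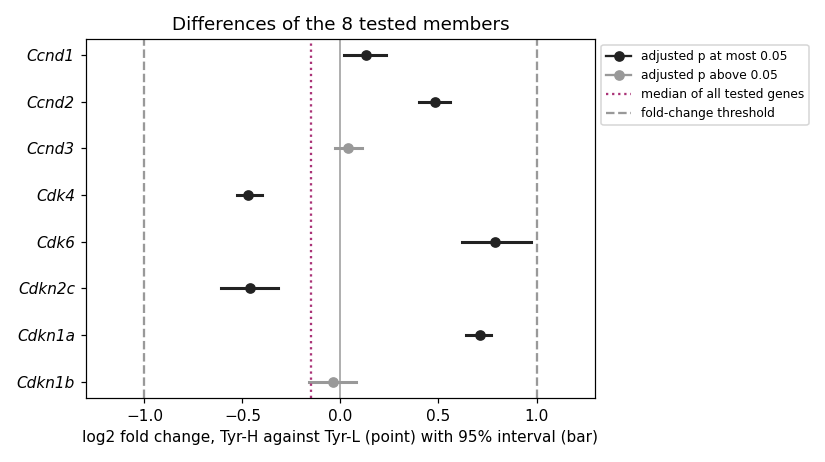
Log2 fold changes between Tyr-H and Tyr-L (points) with their 95% intervals (bars) for the 8 tested members, in black where the adjusted p was at most 0.05. *Cdk6* (0.79), *Cdkn1a* (0.71) and *Ccnd2* (0.48) lie to the right, *Cdk4* (-0.47) and *Cdkn2c* (-0.46) to the left of both 0 and the median of all tested genes at -0.15 (dotted), and none reaches the dashed 2-fold lines.

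The order of the levels differed between the groups. In Tyr-L cells it ran from *Cdk4* (176 FPKM) through *Ccnd2*, *Ccnd3*, *Ccnd1*, *Cdkn1a*, *Cdkn2c* and *Cdkn1b* to *Cdk6*, and no neighbours in that order overlapped over the 3 libraries, although *Ccnd3* (from 104 FPKM) and *Ccnd1* (up to 103 FPKM) nearly met. In Tyr-H cells *Ccnd2* (181 FPKM) came first, *Cdkn1a* next and *Cdk4* after it. There the ranges of *Ccnd3* (110 to 111 FPKM) and *Ccnd1* (102 to 116 FPKM) overlapped, as did those of *Cdkn1b* and *Cdkn2c*. *Ccnd1*, *Ccnd2*, *Ccnd3*, *Cdk4* and *Cdkn1a* were all above the 95th percentile of the levels of tested genes, at 95.7 to 97.1, *Cdkn2c* and *Cdkn1b* at 77.1 and 75.3, and *Cdk6* at 48.4.

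Several members share bases with a gene on the other strand, and since the counting is not described in the sources used here, their reads cannot be kept apart. *Cdk4* overlaps *Tspan31*, which was at 51.9 and 50.6 FPKM (log2 fold change -0.03, adjusted p = 0.49). The direction of *Tspan31* turned with the scaling, as it passed as lower after rescaling to equal totals (-0.13, adjusted p = 0.042) and as higher under median ratio scaling (0.12, adjusted p = 0.043). *Ccnd3* overlaps *Bysl*, which was at 14.9 and 17.1 FPKM (log2 fold change 0.20, adjusted p = 0.0067) and gave 0.10 after rescaling to equal totals (adjusted p = 0.15) and 0.35 under median ratio scaling (adjusted p = 0.0002), while *Ccnd1* overlaps the gene that the annotation names *LTO1*, at 11.4 and 10 FPKM (log2 fold change -0.18, adjusted p = 0.11). The overlapping genes of *Ccnd2*, *Cdk6* and *Cdkn1a* had means of at most 0.401 FPKM. *Cdkn1b*, *Cdkn2a*, *Cdkn2b* and *Cdkn2c* have no such neighbour in the annotation. Of the other genes named, *Rb1*, *Ccna2*, *Cdk2*, *Ddb1*, *Ctnnb1*, *Cbx7*, *Mki67*, *Mtap*, *Klhl9*, *Focad*, *Hacd4*, *Gm26566*, *Gm13283*, *Gm12608*, *Mitf* and *Pmel* are among those that have one, so the same holds for their values. *Ezh2* and *Foxo1* have one too.

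Most of the other genes of the G1/S pathway were lower in Tyr-H cells. Of 60 such genes in 5 lists, all tested, 45 fell and 6 rose by the adjusted p alone and 9 did not pass, where 39.9% of all tested genes fell and 17.9% rose. The 60 genes had a median log2 fold change of -0.34 beside -0.15 over all tested genes. Under median ratio scaling 36 were lower and 10 higher with a median of -0.19, while over all tested genes the share of passing genes that were higher moved from 31% to 50.8%. At the 2-fold threshold 1 of the 60 was called higher and 2 lower, beside 2.96% higher and 5.78% lower of all tested genes, so these calls were no more frequent than over all genes. Genes named below for being the few that rose or did not pass in a list were picked after their values were seen. So were genes set beside them for going the other way.

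Of the 13 retinoblastoma and E2F genes, 9 fell, 1 rose and 3 did not pass (median -0.46, and -0.31 under median ratio scaling). *Rb1*, the retinoblastoma gene, was the 1 that rose, from 4.51 ± 0.313 to 5.62 ± 0.0232 FPKM (log2 fold change 0.31, SE 0.08, adjusted p = 0.0065, and 0.49 with quantile normalization). *Tfdp1*, the E2F partner and the most abundant of the list, fell from 82.4 ± 2.05 to 57.7 ± 3.10 FPKM (log2 fold change -0.51, SE 0.04, adjusted p = 1.2e-05).

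Of the 10 other G1/S cyclins, kinases and inhibitors, 7 fell, 1 rose (*Cdkn2d*, above) and 2 did not pass (median -0.48, and -0.33 under median ratio scaling). *Cdk2*, the kinase that p21 and p27 hold in check, was at 103, 98.1 and 100 FPKM in Tyr-L libraries 1 to 3 and 36.9, 33.6 and 31.6 FPKM in Tyr-H libraries 1 to 3. It fell with a log2 fold change of -1.56 (SE 0.05, adjusted p = 1.4e-07), the largest fall among the 60 genes. *Cdk2* overlaps *Pmel*, a melanosome gene on the other strand at 1350 to 1380 FPKM in Tyr-L and 776 to 898 FPKM in Tyr-H libraries that fell as well (log2 fold change -0.73, adjusted p = 4.7e-06), and its part in the *Cdk2* values was not tested. *Cdkn1a* stood to *Cdk2* at 0.89 to 0.951 in Tyr-L and at 4.05 to 4.77 in Tyr-H libraries. *Ccna2*, cyclin A2, fell from 106 ± 3.93 to 66.8 ± 1.81 FPKM (log2 fold change -0.66, SE 0.04, adjusted p = 1.5e-06).

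Of the 10 genes that act in the turnover of D-type cyclins, p27 and p21, 7 fell, 1 rose and 2 did not pass (median -0.30), beside 6 lower and 3 higher under median ratio scaling (median -0.15). *Pcna*, the sliding clamp at which p21 and the replication factor CDT1 are marked for degradation, fell from 255 ± 3.97 to 166 ± 4.33 FPKM (log2 fold change -0.62, SE 0.03, adjusted p = 8.6e-07). *Ddb1*, an adaptor of the ubiquitin ligase that acts there, was the 1 that rose, from 168 ± 5.50 to 199 ± 3.28 FPKM (log2 fold change 0.24, SE 0.03, adjusted p = 0.00025), with 0.15 after rescaling and 0.40 under median ratio scaling.

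Of 12 genes for regulators of the members' transcription, 8 fell, 3 rose and 1 did not pass (median -0.25). Under median ratio scaling 4 of the 12 were lower, 4 higher and 4 did not pass (median -0.10), so the excess of lower genes in this list depended on the scaling. *Klf4*, a zinc finger factor known to activate *Cdkn1a*, was low but the only pathway gene called higher, at 0.708, 0.789 and 0.77 FPKM in Tyr-L and 1.79, 1.9 and 2.04 FPKM in Tyr-H libraries (log2 fold change 1.23, SE 0.14, adjusted p = 5.6e-05). Its log2 fold change was 0.73 with a pseudocount of 1 FPKM, which ends the call. *Foxo1* and *Foxo3*, genes for forkhead factors, were among the 8 of the list that fell. Their log2 fold changes were -0.57 (adjusted p = 0.0018) and -0.37 (adjusted p = 0.00032). *Trp53*, the gene for p53, rose from 81.9 ± 4.70 to 92.1 ± 0.973 FPKM (log2 fold change 0.17, SE 0.04, adjusted p = 0.0073) and did not pass after rescaling to equal totals (0.08, adjusted p = 0.2), while median ratio scaling gave 0.32 (adjusted p = 0.00023). *Cbx7*, a Polycomb protein that represses *Cdkn2a*, rose from 2.26 ± 0.161 to 3.00 ± 0.247 FPKM (log2 fold change 0.39, SE 0.11, adjusted p = 0.012). *Ezh2* and *Bmi1*, also Polycomb genes of this list, were more abundant and fell. *Ezh2* went from 79.2 ± 3.38 to 50 ± 2.68 FPKM (log2 fold change -0.66, adjusted p = 4.5e-06). *Bmi1* went from 52.6 ± 2.82 to 45.8 ± 2.40 FPKM (log2 fold change -0.20, adjusted p = 0.0092), but did not pass under median ratio scaling. *Mdm2*, whose protein degrades p53, did not pass, at 39.7 ± 1.93 and 39.7 ± 2.01 FPKM, except under median ratio scaling (0.15, adjusted p = 0.02). *Ctnnb1*, which encodes beta-catenin and was the most abundant of the list, fell from 678 ± 8.15 to 560 ± 15.3 FPKM (log2 fold change -0.28, SE 0.03, adjusted p = 0.0001), which is -0.12 from the median of all genes.

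Of 15 target genes of E2F, 14 fell (11 under median ratio scaling) and 1, *Cdt1*, did not pass (36.9 ± 1.68 and 37.3 ± 0.519 FPKM, adjusted p = 0.72). The median of the list was -0.43, and -0.27 under median ratio scaling. *Cdt1* passed as higher under median ratio scaling (0.17, adjusted p = 0.0083) and under quantile normalization (0.11, adjusted p = 0.046). *Rrm2*, a subunit of ribonucleotide reductase and the most abundant of the list, fell from 307 ± 2.66 to 184 ± 6.38 FPKM (log2 fold change -0.74, SE 0.03, adjusted p = 4.5e-07). *Mki67*, the gene for the proliferation marker Ki-67, was at 47, 40.4 and 43.4 FPKM in Tyr-L libraries 1 to 3 and 21, 19.7 and 16.6 FPKM in Tyr-H libraries 1 to 3 and was called lower (log2 fold change -1.19, SE 0.09, adjusted p = 4.5e-06).

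**Figure D5:**
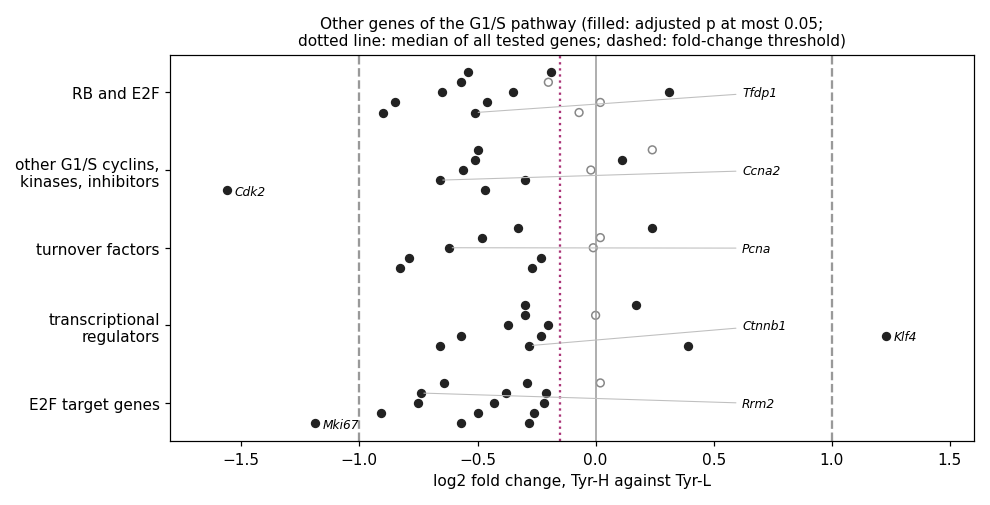
Log2 fold changes between Tyr-H and Tyr-L for the 60 other G1/S genes, a row for each list, filled where the adjusted p was at most 0.05. Most points lie left of the dotted median of all tested genes (-0.15), *Cdk2* (-1.56) and *Mki67* (-1.19) pass the dashed 2-fold line on the left and *Klf4* (1.23) that on the right.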

How the data were processed

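RNA of 3 Tyr-H and 3 Tyr-L libraries had been sequenced, and groups and replicate numbers came from the labels. Per library, 1 table of FPKM values was deposited by the authors. The submitters' processing notes name Trimmomatic, HISAT2 and GRCm38.p6, while the quantifier and annotation are not given in the sources used here. Unlisted genes were taken as 0. Values were mostly not whole multiples of a step (38.19% to 44.76% of low values within 0.15 of a whole number), so no count test was run, and the estimated depth is approximate.

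Genes whose mean reached 0.1 FPKM were compared on log2(FPKM + 0.1) by limma 3.58.1 in R 4.3.3, using eBayes with a trend and p-values adjusted by Benjamini-Hochberg across them, and by an exact permutation test on FPKM. Calls needed an adjusted p up to 0.05 and a log2 fold change of 1 or more in size. Coordinates, transcript lengths and overlaps came from GENCODE M21 and promoter windows from RefSeq. The procedure was tested on simulated data in which the changed genes differed by more than 2-fold, scored at the 2-fold call. That test does not cover differences as small as those of the members, or the adjusted p alone. Other steps used Python 3.11.15 with pandas 2.3.3 and numpy 2.4.6.

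The members and the gene lists were chosen with earlier results of these data known. Named are all members, the pathway genes called and the most abundant of each list, the protein-coding genes within 1 Mb of *Cdkn2a* that were tested, and genes singled out as stated. Alternatives were other pseudocounts, filters, scalings and variance models, the replicate number as a block, no fold-change threshold and each library left out. Counts at the adjusted p alone under each setting were added after seeing the data. Replicate libraries differed by a median of 0.0727 to 0.08699 on the log2 scale and libraries of different groups by 0.2637 to 0.3081, and no libraries were duplicates.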

Additional observations from a re-analysis of the deposited data

How the results depend on the processing

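*Ccnd2*, *Cdk4*, *Cdk6*, *Cdkn2c* and *Cdkn1a* kept their direction and their side of the adjusted p threshold in all 15 alternatives run for each, as did the 8 pathway genes named by the rule. Log2 fold changes ranged from 0.39 to 0.64 for *Ccnd2*, from -0.56 to -0.31 for *Cdk4*, from 0.70 to 0.96 for *Cdk6*, from -0.56 to -0.31 for *Cdkn2c* and from 0.61 to 0.86 for *Cdkn1a*. *Ccnd1* no longer passed the adjusted p with a pseudocount of 0.01 (adjusted p = 0.051), with no filter (0.087), with rescaling to a total of 1000000 (0.67), without the variance trend (0.14), under the replicate block (0.072) and without Tyr-L library 1 (0.15), Tyr-L library 3 (0.11), Tyr-H library 1 (0.15) or Tyr-H library 2 (0.099), and its log2 fold change ran from 0.03 to 0.28. *Ccnd3* turned to -0.05 with rescaling and passed at 0.19 with median ratio scaling. *Cdkn1b* turned to 0.11 with median ratio scaling, 0.08 with quantile normalization and 0.01 without Tyr-L library 1, and over the fits that leave out 1 library it ran from -0.07 to 0.01. Why these values moved was not tested.

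Without the fold-change threshold, 4 members were higher and 2 lower, and 6 pathway genes higher and 45 lower. With a pseudocount of 1 no pathway gene (0) was called higher at 2-fold, and at the adjusted p alone median ratio scaling gave 10 higher. The log2 ratio of summed levels, with no test, moved for the D-type cyclins from 0.25 to 0.16 with rescaling and 0.40 with median ratio scaling, for CDK4/6 from -0.41 to -0.50 and -0.26, and for CIP/KIP from 0.59 to 0.50, 0.74 and, with quantile normalization, 0.64. For INK4 it moved from -0.46 to -0.31 with median ratio scaling and -0.34 with quantile normalization. The median of all tested genes was -0.25 with rescaling and -0.01 with either other scaling, and of all genes that passed 21.5%, 50.8% and 48.3% were higher, in the order rescaling, median ratio and quantile.

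Replicate numbers of the labels did not pair the libraries: the deviations of same-numbered libraries correlated at 0.00904, 0.0342 and -0.173. With the replicate number as a block, *Ccnd1* (0.13, adjusted p = 0.072) and the pathway gene *Cdkn2d* (0.11, adjusted p = 0.083) no longer passed the adjusted p alone, and no other tested member or pathway gene changed sides of it. The unlisted *Cdkn2a* and *Cdkn2b* are limited by the depth of the libraries.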
